A study of Mus musculus with 60 samples.

Results

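The genes described here encode the subunits of voltage-gated calcium channels, voltage-gated sodium channels and HCN channels, measured in the mouse cortex after sleep deprivation and recovery sleep. They were chosen by symbol, from the calcium channel genes (Cacn), the numbered sodium channel alpha and beta genes (Scn) and the HCN channel genes (Hcn) in the platform's probeset annotation. A gene was kept where a probeset with that symbol alone was over a log2 value of 4 on more than 50% of the 59 arrays, and it was represented by its brightest such probeset. Of 43 matching probesets, 42 carried a single symbol and named 39 genes, and 38 genes were kept, out of 18386 genes named by kept probesets of 1 symbol. The gene left out was Cacng1, whose probeset was over the limit on 25 arrays (mean log2 value 3.95). The nearest gene inside was Scn11a, over it on 32 arrays (mean 4.01), and the other 37 genes were over it on every array. Some of these were still dim, with means from 4.57 to 4.91 for Cacna1f, Cacng6, Scn10a, Cacna2d4 and Cacna1s. A stricter limit of log2 6, used as an alternative, left 30 genes.

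Voltage-gated calcium channels are built around a pore-forming alpha1 subunit that sets the type of current, with alpha2delta and beta subunits that bring it to the membrane and tune its gating. Sodium channels have a pore-forming alpha subunit that carries the upstroke of the action potential and beta subunits that modify it, while HCN channels open on hyperpolarisation and carry a depolarising current that shapes rhythmic firing. In the thalamocortical system, T-type calcium channels and HCN channels are known for their part in the slow oscillations of sleep.

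The study asked how cortical gene expression follows the build-up and the discharge of sleep need. RNA from the left cortex of male C57BL/6J mice, 2 months old, was hybridised to 1-colour Affymetrix arrays, and no pooling of mice is named. Sleep-deprived mice were killed at once (SD, 6 h of deprivation, ZT6, n = 7) or after recovery sleep: 2 h after 6 h of deprivation (RS2, ZT8, n = 4), 3 h after 5 h (RS3, ZT8, n = 7) or 6 h after 5 h (RS6, ZT11, n = 7). Circadian controls left undisturbed are named by their hour after lights on, which is ZT0: CC0, CC6, CC8 and CC11 had 7 arrays each and CC7 had 6. All mice, controls included, had been brushed and handled daily for 6 days before the experiment. The length of deprivation was therefore 6 h for SD and RS2 and 5 h for RS3 and RS6. A difference between SD and RS3 or RS6 thus mixes recovery with a shorter deprivation. RS2 and RS3 were set against the same CC8 arrays.

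Between 78.1% and 81.1% of all probesets were over log2 4 on each array. On the first principal component 5 arrays stood apart, namely SD replicates 1 and 2 and replicate 1 of CC0, CC8 and RS6. On SD replicate 1 the channel genes lay a median of 0.39 log2 from their group means in the deposited RMA values, and 0.037 after removal of unwanted variation (RUV). The cortical identity of the tissue was read from marker lists: the mean of 9 neuronal markers lay between 10.28 and 10.37 in every group and that of 5 cortical layer markers between 8.95 and 9.04. Of the other lists, 1 of 5 oligodendrocyte and 1 of 5 microglial markers fell and 1 of 6 astrocyte markers rose in SD, 1 of 9 neuronal markers rose in RS2, and 1 of 4 endothelial markers fell in CC11 against CC0, at an FDR of 0.01. Over all probesets the shares past this FDR were 1.93% in SD, 0.299% in RS2 and 0.975% for CC11 against CC0. No marker of oligodendrocyte precursors (2 genes) or choroid plexus (3 genes) passed. The mean of 7 striatal markers differed more, from 8.31 in SD and 8.37 in RS2 to 9.15 in CC11. In these bulk samples fewer cells of a type and less RNA per cell cannot be told apart.

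No channel gene passed an FDR of 0.01 (limma with 6 RUV factors, Benjamini-Hochberg over all 32819 kept probesets) in any comparison, on RUV-adjusted or on RMA values. Sleep deprivation called 0 of 38 against 1.93% of all probesets (SD against CC6). Recovery called 0 of 38 in RS2 against 0.299% of probesets, 0 in RS3 against 0.171% and 0 in RS6 against 0.149%. Among undisturbed mice the counts were also 0 of 38, against 0.158% of probesets for CC6 over CC0, 0.265% for CC11 over CC6, 0.975% for CC11 over CC0 and 0.896% for the F test over the 5 control groups. These shares are so low that a list of 38 genes without a call is not set apart from the array as a whole. Other processing settings called at most 2 channel genes in a comparison. After sleep deprivation the 95% interval of the difference lay within 0.25 log2 of 0 for 26 of 38 genes and within 0.5 log2 for 37. The corresponding counts were 21 and 37 for RS2, 32 and 38 for RS3, and 24 and 36 for RS6.

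Few of the point estimates were large. Of the 152 differences in the 4 sleep comparisons, 6 were beyond 0.25 log2 in size, and 3 of those were differences of Scn4b. At an unadjusted p under 0.05, sleep deprivation gave 2 higher and 7 lower channel genes of 38 (5.26% and 18.4%), against 8% and 7.88% of all probesets. These counts moved with the scaling, to 8 higher and 7 lower without RUV (9.75% and 11.7% of probesets) and to 2 higher and 3 lower with 3 RUV factors (7.48% and 7.35%). RS2 gave 4 higher and 2 lower, against 5.71% and 4.78%. The RS2 counts moved when single arrays were left out, and so did the shares of all probesets. They were 1 higher and 2 lower without replicate 1 (5.16% and 4.36% of probesets) and without replicate 2 (4.11% and 3.87%). Without replicate 3 they were 5 and 4 (5.77% and 3.98%), and without replicate 4 they were 4 and 1 (5.76% and 4.97%). Without RUV the RS2 counts were 1 and 1 (2.46% and 1.98%). RS3 gave 1 higher and 0 lower, against 6.66% and 5.09%. RS6 gave 4 higher and 11 lower (10.5% and 28.9%), against 7.93% and 6.21%. With a filter at log2 6 the RS6 counts were 3 higher and 8 lower of 30, against 10% and 7.21% of probesets. The median difference over the 38 genes was -0.008 log2 in SD, -0.015 in RS2, 0.007 in RS3 and -0.051 in RS6, beside 0.001, 0.006, 0.009 and 0.007 over all probesets.

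CC6 against CC0 had 0 genes at an unadjusted p under 0.05 in either direction, against 5.16% and 4.34% of probesets. CC11 against CC6 had 10 higher and 3 lower (26.3% and 7.89%), against 6.94% and 8.41%. CC11 against CC0 had 5 higher and 3 lower, against 7.37% and 8.08%, and the F test had 7 genes (18.4%) against 16.7%. The 11 genes lower in RS6 than in CC11 and the 10 genes higher in CC11 than in CC6 rest on the same CC11 arrays. With the striatal marker mean as a covariate the first count was 8 of 38 (5.59% of all probesets) and the second 5 of 38 (6.18%). Without RUV these counts were 4 (4.69%) and 2 (4.35%).

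**Figure D1:**
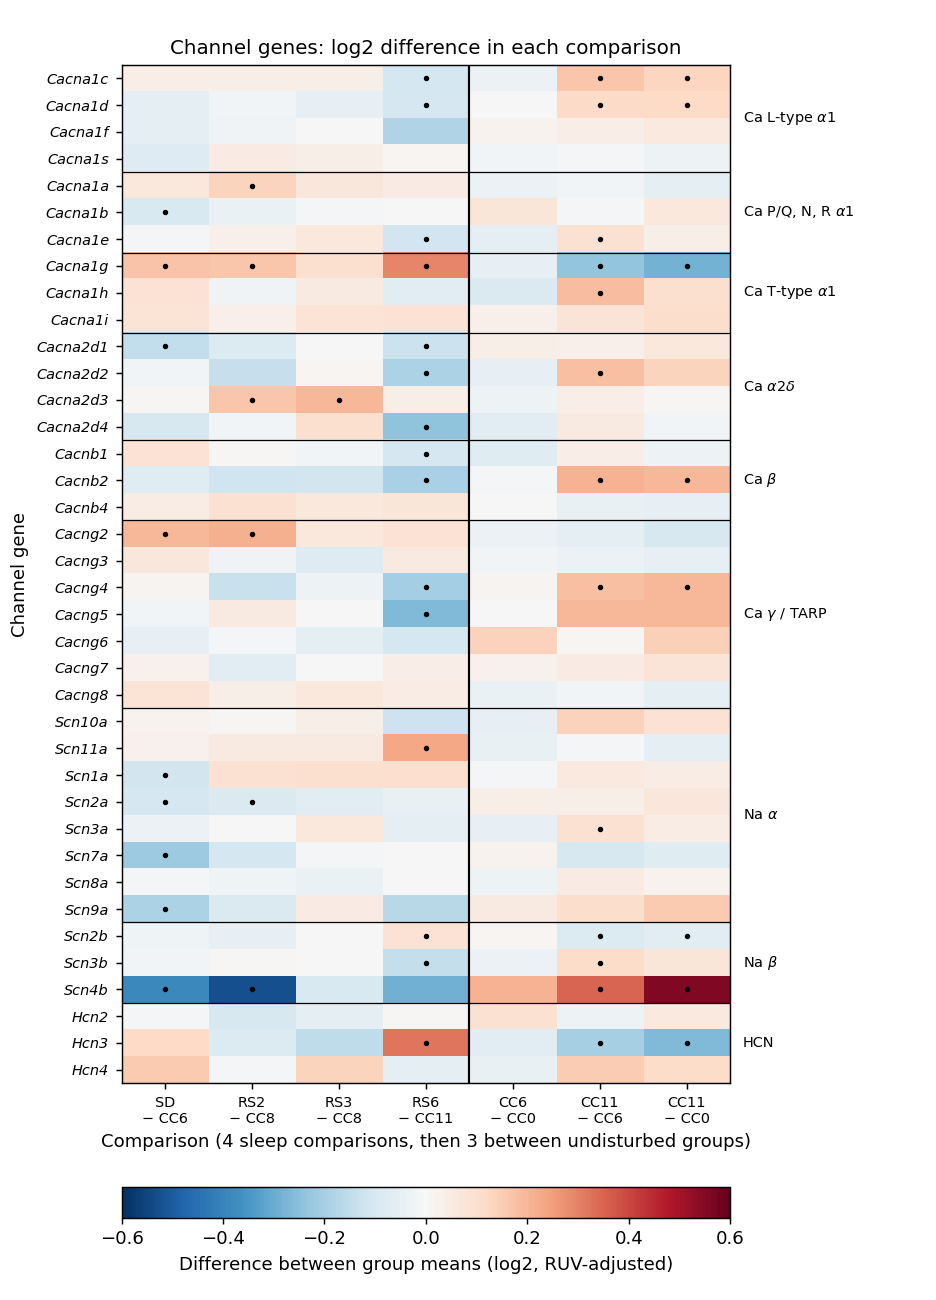
RUV-adjusted log2 difference between group means for each of the 38 channel genes (rows, by subunit class) in the 4 sleep comparisons and in 3 comparisons between undisturbed groups (columns). Black dots mark an unadjusted p under 0.05, and no cell passed an FDR of 0.01; the RS6 column holds the most dots, 15 of 38, and Scn4b the deepest colours.

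Among the pore-forming subunits, the T-type gene Cacna1g (Cav3.1), known for burst firing of thalamic relay neurons, had the smallest p after 6 h of recovery. Its RMA log2 values ran from 8.41 (median 8.57) to 8.61 in RS6 and from 8.09 (median 8.2) to 8.35 in CC11. Every RS6 array was thus above every CC11 array, before and after RUV. The difference was 0.29 log2 (SE 0.067, 1.22-fold) with an adjusted p of 0.0199, and 0.33 on RMA values (adjusted p = 0.179). Without the 5 arrays that stood apart, with RUV estimated anew, Cacna1g passed the FDR (adjusted p = 0.00178).

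The mean RUV-adjusted level of Cacna1g was 8.57 in RS6, near that of CC0 and CC6, and CC11 had the lowest mean of the 9 groups. In undisturbed mice the mean RUV-adjusted level was 8.56 in CC0, 8.51 in CC6, 8.45 in CC7, 8.38 in CC8 and 8.28 in CC11. All 7 CC11 arrays lay below all 7 CC6 arrays, whose RMA values ran from 8.37 to 8.61, and below all CC0 arrays, from 8.43 to 9.2. The differences were -0.24 log2 for CC11 against CC6 (SE 0.065, adjusted p = 0.0464) and -0.28 against CC0 (SE 0.067, adjusted p = 0.0111), with an F test over the control groups at an adjusted p of 0.0391. These comparisons share CC11 with the RS6 comparison. Against its own controls the gene differed by 0.17 log2 in SD (adjusted p = 0.175, or 0.31 on RMA values), 0.17 in RS2 (adjusted p = 0.422) and 0.098 in RS3 (adjusted p = 0.598), so all 4 estimates were positive. The RS6 difference was not shown to be unlike the SD difference (0.12 log2 apart, 95% interval -0.063 to 0.31).

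The other T-type genes differed less. For Cacna1h (Cav3.2) the largest difference was 0.18 log2 for CC11 against CC6 (adjusted p = 0.133), and in SD it was 0.089 (95% interval -0.048 to 0.22). Cacna1i (Cav3.3), which with Cacna1h serves bursts in the reticular thalamus, differed by 0.080 log2 in SD and 0.085 in RS6, neither with an adjusted p below 0.636. On RMA values Cacna1i gave 0.28 in SD (adjusted p = 0.161) and 0.19 in RS6 (adjusted p = 0.582), with 9.46 and 9.13 on SD replicates 1 and 2 and 8.54 to 8.69 on the other 5. The RMA difference of Cacna1h in SD was 0.23 (adjusted p = 0.174). Across the 59 arrays, with group means taken out, Cacna1h varied with the mean of the striatal markers (r = 0.53 and rho = 0.588).

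Of the L-type genes, whose calcium entry is known to signal to the nucleus, Cacna1c (Cav1.2) had its smallest p between control groups. Its RMA values ran from 9.55 (median 9.57) to 9.67 in CC6 and from 9.65 (median 9.78) to 9.91 in CC11, and 6 of the 7 CC11 arrays were above all CC6 arrays. The difference was 0.17 log2 (SE 0.036, adjusted p = 0.0119, or 0.349 on RMA values), and CC11 against CC0 gave 0.13 (SE 0.037, adjusted p = 0.0452). Cacna1c varied with the striatal markers across arrays (r = 0.394 and rho = 0.498, group means taken out), and the marker mean was 8.58 in CC6 and 9.15 in CC11. Over the other settings, a striatal covariate among them, the CC11 against CC6 difference ran from 0.12 to 0.19 log2. Its limma adjusted p ran from 0.00221 to 0.349, and with the striatal covariate it did not pass the FDR. RS6 stood -0.11 log2 from the same CC11 arrays (adjusted p = 0.139), with RMA values from 9.5 (median 9.7) to 9.82. In SD the difference was 0.039 log2 with a 95% interval from -0.037 to 0.11. Cacna1d (Cav1.3) gave smaller values of the same signs as Cacna1c at ZT11, 0.12 for CC11 against CC6 (adjusted p = 0.166) and -0.099 for RS6 against CC11 (adjusted p = 0.302).

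The P/Q-, N- and R-type genes drive transmitter release, and none had an RUV-adjusted estimate beyond 0.1 log2 in SD. Cacna1a (Cav2.1) differed by 0.063 log2 in SD (95% interval -0.055 to 0.18, or 0.16 on RMA values) and by 0.13 in RS2 (adjusted p = 0.456). For Cacna1b (Cav2.2) the SD difference was -0.092 (adjusted p = 0.22, 0.0070 on RMA values) and the RS6 difference 0.0013 (95% interval -0.077 to 0.079). Cacna1e (Cav2.3) gave -0.0064 in SD (95% interval -0.099 to 0.086, or 0.095 on RMA values) and -0.11 in RS6 (adjusted p = 0.212).

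The accessory subunits held both of the smallest p-values after sleep deprivation. Cacna2d1 encodes alpha2delta-1, which carries calcium channels to presynaptic membranes and is the target of gabapentin. Its RMA values ran from 10.7 (median 10.85) to 10.9 in CC6 and from 10.51 (median 10.64) to 10.69 in SD, so that all 7 SD arrays were below all 7 CC6 arrays. The difference was -0.15 log2 (SE 0.039, 0.901-fold) with an adjusted p of 0.0148, and -0.20 on RMA values (adjusted p = 0.019). In RS2 the 4 arrays read 10.71, 10.71, 10.8 and 10.75 against 10.61 (median 10.85) to 10.95 in CC8, and all 4 lay inside the CC8 range. The difference was -0.084 log2 (adjusted p = 0.493) in RS2, 0.0037 (95% interval -0.070 to 0.077) in RS3 and -0.13 (SE 0.038, adjusted p = 0.0729) in RS6. The RS3 difference minus the SD difference was 0.15 log2 (adjusted p = 0.238).

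Another alpha2delta gene, Cacna2d3, had its smallest p during early recovery. Its SD difference was 0.0063 log2 (95% interval -0.11 to 0.12). In RS3 its RMA values ran from 10.13 (median 10.3) to 10.35, and in CC8 from 9.93 (median 10.01) to 10.14, so 5 of 7 RS3 arrays were above every CC8 array. The difference was 0.20 log2 (SE 0.054, adjusted p = 0.0595, or 0.523 on RMA values). The 4 RS2 arrays read 10.33, 10.3, 10.28 and 9.94 against the same CC8 arrays. Of these, 3 were above that range and 1, at 9.94, was at its lower end. After RUV 3 were above and 1 was below every CC8 array. The RS2 difference was 0.17 (SE 0.063, adjusted p = 0.277). In RS6 it was 0.034 (95% interval -0.079 to 0.15).

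Cacng2 encodes stargazin, a member of the transmembrane AMPA receptor regulatory proteins (TARPs), which bring AMPA receptors to synapses as well as binding calcium channels. Its RMA values in CC6 ran from 9.71 (median 9.79) to 9.94, and in SD from 9.35 (median 10.0) to 10.1. Of the 7 SD arrays, 4 were above every CC6 array and 1, replicate 1, was below every one of them. This is an array that stood apart. The RMA difference was 0.073 log2 (adjusted p = 0.71). After RUV the SD arrays lay between 9.89 and 10.07 and the CC6 arrays between 9.75 and 9.83, for a difference of 0.20 log2 (SE 0.049, 1.15-fold, adjusted p = 0.0107). RUV takes the groups as replicate sets, so it narrows the spread within groups by construction. Without the 5 arrays that stood apart, with RUV estimated anew, Cacng2 and Cacna2d1 both passed an FDR of 0.01 in SD (2 of 38, smallest adjusted p = 0.00186). The share of all probesets past the FDR in that fit is not given here. Over the other settings tried, the limma adjusted p ran from 0.00131 to 0.71 for Cacng2 and from 0.00223 to 0.041 for Cacna2d1.

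A second kept Cacng2 probeset, dimmer at a mean of 6.83, gave 0.33 log2 in SD (SE 0.084, adjusted p = 0.0154). For RS2 the dimmer probeset gave 0.13 (adjusted p = 0.691). Between undisturbed groups it gave -0.24 for CC6 against CC0 (adjusted p = 0.228) and -0.32 for CC11 against CC0 (adjusted p = 0.0223). The main probeset had RUV-adjusted means of 9.81 in CC0, 9.78 in CC6 and 9.72 in CC11. In RS2 the 4 arrays of the main probeset read 10.14, 10.16, 9.81 and 9.9 against 9.65 (median 9.8) to 9.84 in CC8, and 3 of 4 were above that range. The RS2 difference was 0.21 log2 (SE 0.055, adjusted p = 0.0484, or 1 on RMA values). In RS3 it was 0.061 (95% interval -0.033 to 0.15) and in RS6 0.086 (95% interval -0.011 to 0.18). The remaining 6 genes of this class ran from -0.049 to 0.084 log2 in SD, each with an adjusted p of 0.409 or more.

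**Figure D2:**
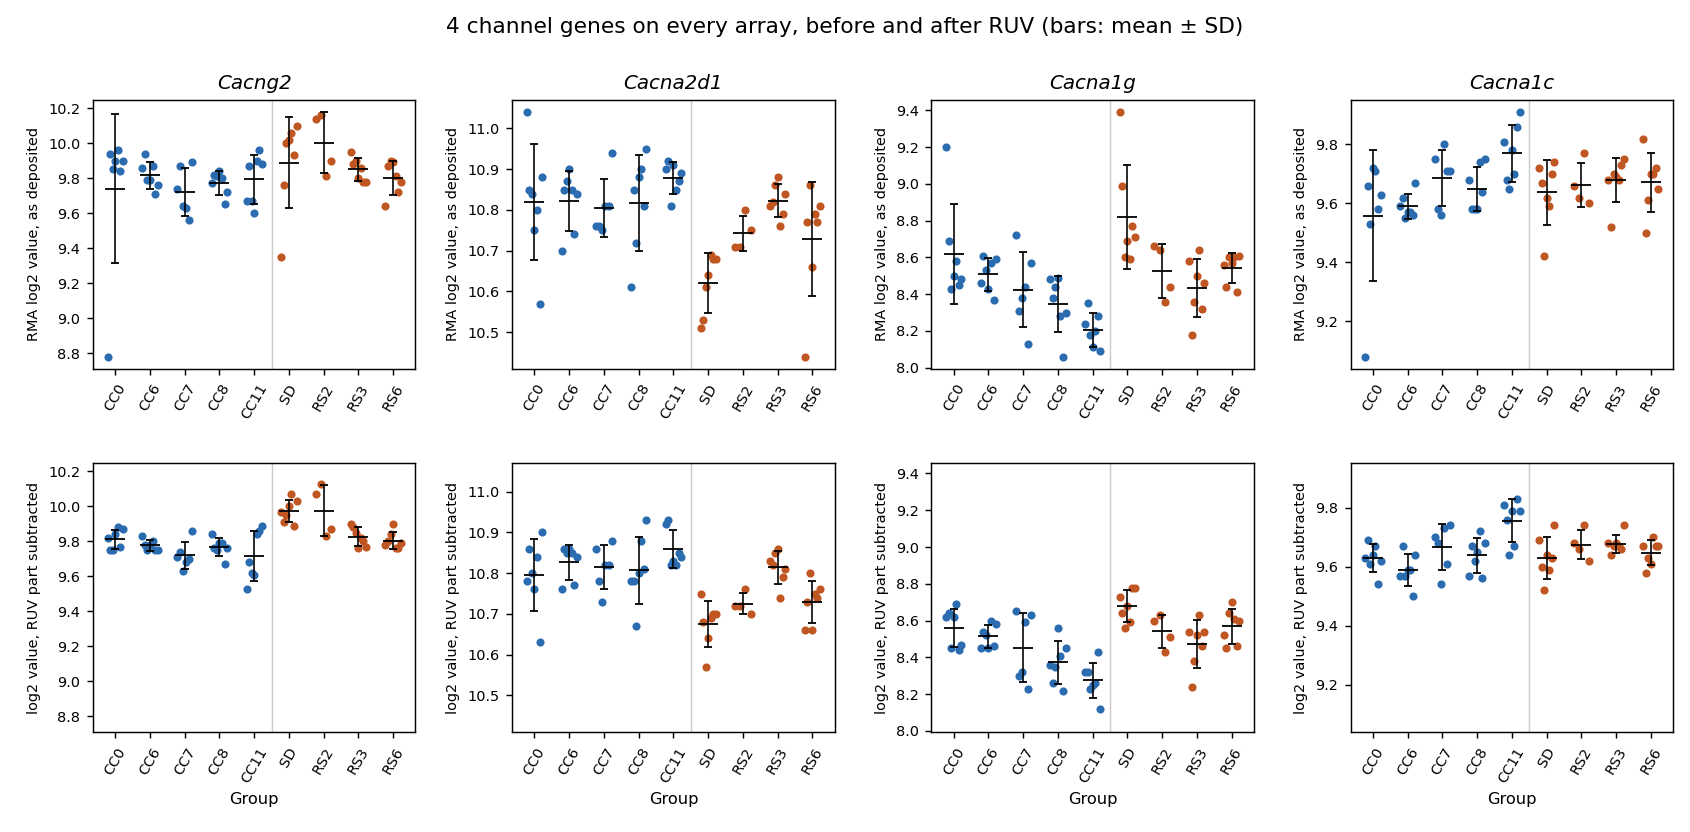
log2 values of Cacng2, Cacna2d1, Cacna1g and Cacna1c on each of the 59 arrays by group, as deposited (top) and with the RUV part subtracted (bottom, same scale for each gene); blue points are undisturbed mice, orange points sleep-deprived or recovering mice, and bars give the mean ± SD. The lowest SD point of Cacng2 (9.35) and the highest CC0 and SD points of Cacna1g (9.2 and 9.39) all came from arrays that stood apart, and they drew in to their groups after RUV.

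Of the cytoplasmic beta subunits, which chaperone alpha1 to the membrane, Cacnb2 was among the 3 genes with the smallest p in RS3, in RS6 and in both CC11 comparisons. Its RMA values ran from 9.23 (median 9.32) to 9.48 in CC11, from 8.92 (median 9.11) to 9.3 in RS6 and from 8.94 (median 9.05) to 9.33 in CC6. The ranges overlapped, with 5 of 7 RS6 arrays below every CC11 array. The difference was -0.20 log2 for RS6 against CC11 (SE 0.057, adjusted p = 0.0697), 0.21 for CC11 against CC6 (SE 0.056, adjusted p = 0.0374) and 0.20 for CC11 against CC0 (SE 0.057, adjusted p = 0.0446), all resting on CC11. A second, dim Cacnb2 probeset (mean 4.78) gave -0.0019 and 0.052 for the first pair and -0.092 for CC11 against CC0. In SD the main probeset gave -0.072 (95% interval -0.19 to 0.045, or -0.22 on RMA values). Cacnb2 varied with the striatal markers across arrays (r = 0.562 and rho = 0.629 over 59 arrays, group means taken out), and with their mean as a covariate the differences were -0.12 for RS6 against CC11 (adjusted p = 0.245), 0.11 for CC11 against CC6 (adjusted p = 0.322) and 0.12 for CC11 against CC0 (adjusted p = 0.217).

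Of the 8 sodium channel alpha genes, 6 had estimates below 0 after sleep deprivation, where the median over all probesets was 0.001 log2. At an unadjusted p under 0.05 there were 4, which 7.88% of all probesets met in that direction. These 4 were Scn2a, Scn1a and the dimmer Scn7a and Scn9a (mean log2 values 6.55 and 5.66). The estimates of Scn3a and Scn8a, given below, were smaller. Over all 38 genes the lower count in SD was 7, and 3 with 3 RUV factors. Scn2a (Nav1.2), expressed in excitatory neurons, read 11.4 (median 11.49) to 11.6 in CC6 and 10.91 (median 11.38) to 11.46 in SD, and 5 of 7 SD arrays were below every CC6 array. The difference was -0.10 log2 (SE 0.035, adjusted p = 0.0914) in SD, or -0.21 on RMA values (adjusted p = 0.0248), -0.086 in RS2 (adjusted p = 0.418), -0.066 in RS3 (adjusted p = 0.437) and -0.046 in RS6 (adjusted p = 0.592).

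Scn1a (Nav1.1), which supports fast firing of inhibitory interneurons, gave estimates of opposite sign during and after sleep loss. Its RMA values ran from 10.03 (median 10.11) to 10.25 in CC6, from 9.18 (median 10.0) to 10.09 in SD and from 9.76 (median 10.33) to 10.47 in RS6. The SD difference was -0.11 log2 (SE 0.052, adjusted p = 0.285, or -0.29 on RMA values), while RS2 gave 0.089, RS3 0.095 and RS6 0.10, none with an adjusted p below 0.359. Set against the SD difference, the RS2 difference was 0.20 log2 higher (SE 0.078, adjusted p = 0.49), that of RS3 0.20 (SE 0.072, adjusted p = 0.245) and that of RS6 0.21 (SE 0.070, adjusted p = 0.0998). These interaction tests called 0 of 38 channel genes, against 0.0518% of probesets for RS2, 0.207% for RS3 and 1.03% for RS6. At an unadjusted p under 0.05 they held 1, 5 and 5 channel genes, against 7.82%, 9.71% and 14.8%.

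For the other sodium channel genes of cortical neurons the intervals after RUV were short. Scn8a (Nav1.6), the main channel of the axon initial segment, gave -0.0089 log2 in SD (95% interval -0.10 to 0.084), -0.028 in RS2, -0.039 in RS3 and 0.0023 in RS6 (95% interval -0.088 to 0.093). Scn3a (Nav1.3), best known from the developing brain, gave -0.036 in SD (95% interval -0.13 to 0.055) and -0.057 in RS6 (95% interval -0.15 to 0.032). On RMA values Scn3a gave -0.25 in SD (adjusted p = 0.126) and -0.14 in RS6 (adjusted p = 0.608), and its SD replicates 1 and 2 read 7.29 and 7.87 against 8.28 to 8.41 on the other 5.

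**Figure D3:**
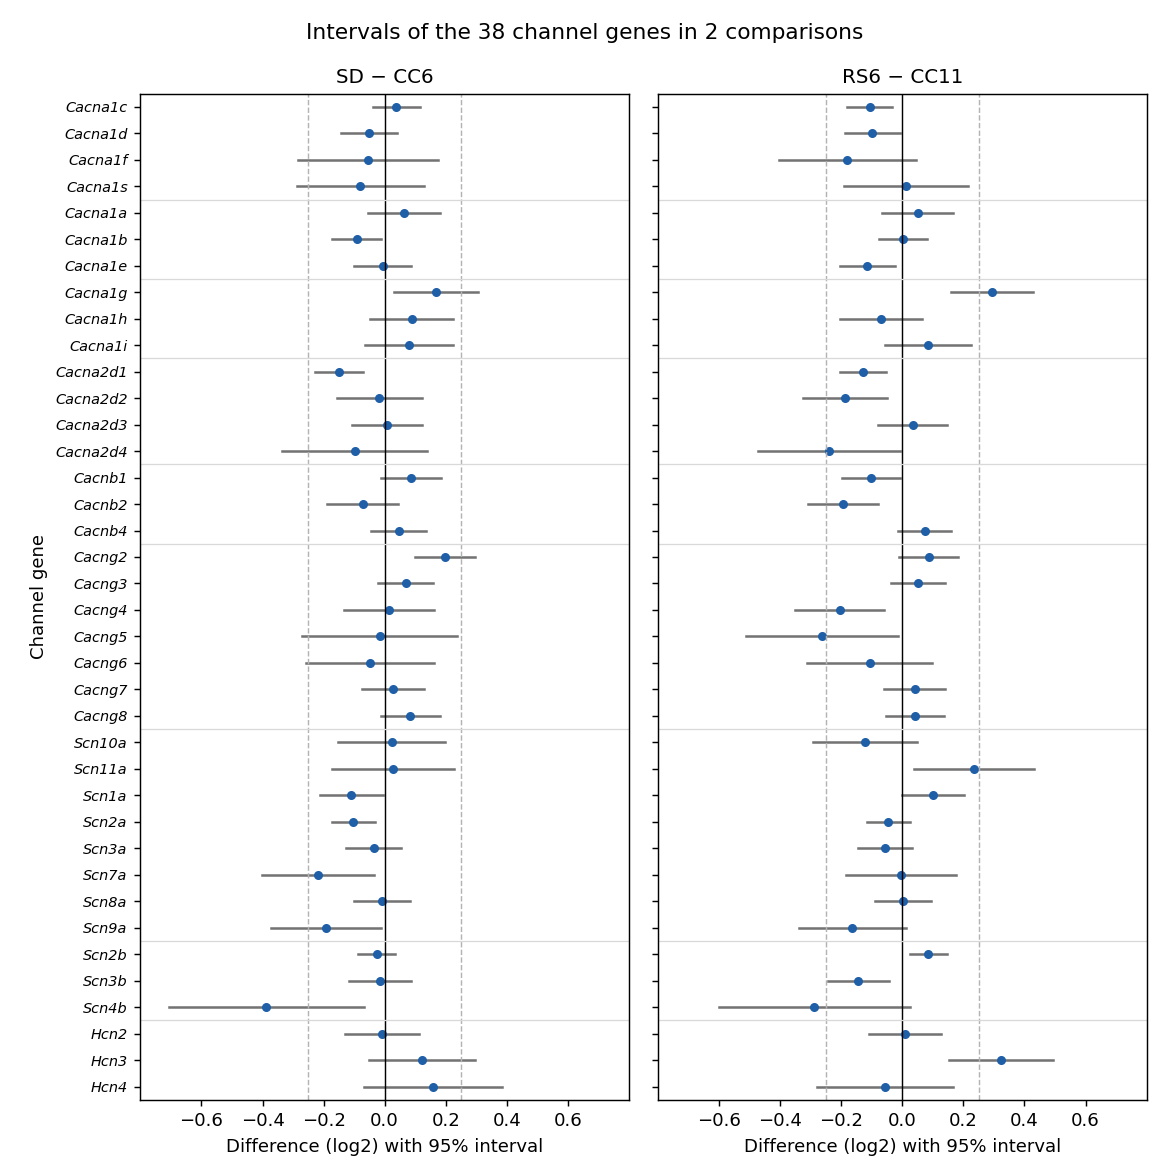
RUV-adjusted log2 difference (point) and its 95% interval (line) for the 38 channel genes after sleep deprivation (SD − CC6, left) and after 6 h of recovery (RS6 − CC11, right); dashed lines stand at 0.25 and -0.25. In SD 26 intervals lie wholly between the dashed lines and in RS6 24, and Scn4b has the widest interval of the named genes in both.

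Scn4b, the beta4 subunit linked to resurgent sodium current, had the largest differences and the largest spread. The 4 RS2 arrays read 7.69, 7.44, 7.88 and 7.0 in RMA values, against 7.69 (median 8.2) to 8.64 in CC8, and 3 of them did not exceed the lowest CC8 array. The difference was -0.53 log2 in RS2 (SE 0.18, adjusted p = 0.187), -0.39 in SD (SE 0.16, adjusted p = 0.186) and -0.29 in RS6 (SE 0.16, adjusted p = 0.404). Between undisturbed groups CC11 stood 0.56 log2 above CC0 (SE 0.16, adjusted p = 0.0398). The SD within groups was 0.43 log2 on RMA values, the widest of the 38 genes, of which Cacna2d1 had the narrowest at 0.093.

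Scn4b is also a gene of striatal projection neurons, and its level followed the striatal markers across arrays. After the group means were taken out, its Pearson correlation with the mean of 7 striatal markers was 0.874 over 59 arrays and Spearman's rho was 0.881, each with a permutation p of 1e-05 within groups, the smallest that 100000 permutations can give. Without the 2 arrays farthest from the median of the marker mean, r was 0.858. The correlation was computed for all 38 genes and tested for this one, which was chosen for its value, so the p is a description. Over the marker list, 0 of 7 genes passed the FDR in any comparison. The median marker difference was -0.28 log2 in SD, -0.54 in RS2, -0.43 in RS6, 0.58 for CC11 against CC6 and 0.50 for CC11 against CC0. The marker mean ranged from 7.86 to 8.93 over SD arrays, from 7.82 to 8.88 in RS2, from 8.3 to 9.46 in CC8 and from 8.63 to 9.46 in CC11. With this mean as a covariate, the Scn4b difference was -0.15 log2 in RS2 (adjusted p = 0.506) and 0.24 for CC11 against CC0 (adjusted p = 0.0592). Cacng4, a TARP picked here after its value was seen, had the next highest correlation with the markers (r = 0.74), and after RUV it was the gene whose profile over 59 arrays was closest to that of Scn4b (r = 0.67, beside a median of 0.036 over 703 pairs).

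**Figure D4:**
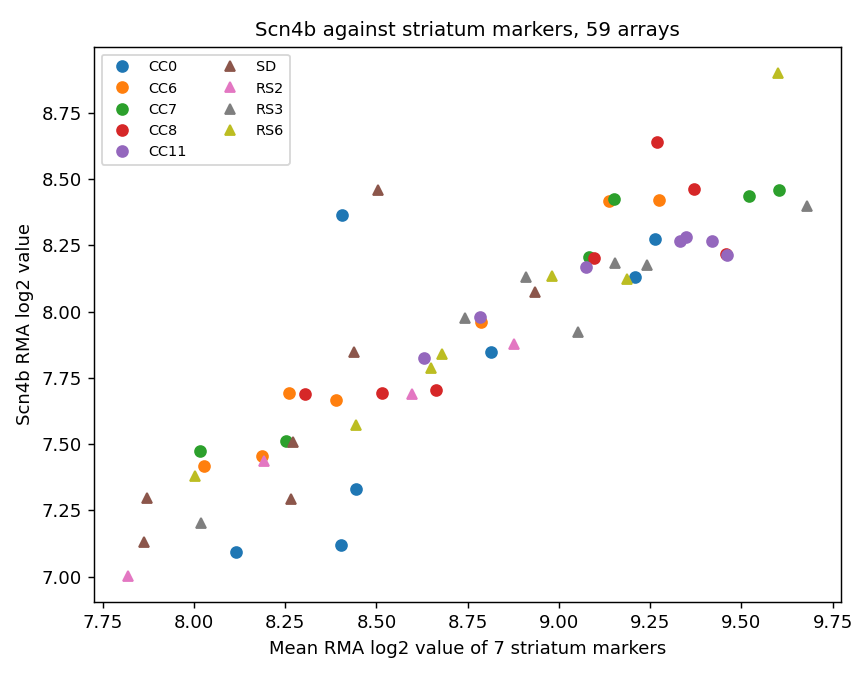
Scn4b RMA log2 value against the mean RMA log2 value of 7 striatal markers on each of the 59 arrays; circles are undisturbed groups and triangles sleep-deprived or recovering groups. The points lie along a rising band, from 7.0 for RS2 replicate 4 up to 8.9 for RS6 replicate 1, with replicate 1 of CC0 and of SD above it.

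Of the HCN genes, Hcn3 had the larger difference. Its RMA values ran from 6.21 (median 6.38) to 6.66 in RS6 and from 5.58 (median 6.05) to 6.34 in CC11, and 6 of 7 RS6 arrays were above every CC11 array. The difference was 0.32 log2 (SE 0.084, 1.25-fold, adjusted p = 0.043, or 0.0859 on RMA values). As with Cacna1g, CC11 was also low among undisturbed groups, -0.26 log2 against CC0 (SE 0.085, adjusted p = 0.0826) and -0.20 against CC6 (adjusted p = 0.218). Hcn3 gave 0.12 in SD (95% interval -0.051 to 0.29), -0.082 in RS2 and -0.15 in RS3 (adjusted p = 0.463). Hcn2, abundant in thalamic relay neurons, gave -0.0078 in SD (95% interval -0.13 to 0.11) and 0.0087 in RS6 (95% interval -0.11 to 0.13). On RMA values the SD difference of Hcn2 was 0.26 (adjusted p = 0.264), with 10.24 and 9.84 on SD replicates 1 and 2, which stood apart, and 9.04 to 9.18 on the other 5 arrays. For Hcn4, the pacemaker isoform of the heart, the SD difference was 0.16 with a wider interval, from -0.068 to 0.39, and it was 0.29 on RMA values (adjusted p = 0.163).

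The genes above were set beside 28 partners and regulators of these channels, of which 24 were measured. In SD 1 of 24 passed the FDR, against 1.93% of all probesets. This was Fgf14, a fibroblast growth factor homologous factor that binds sodium channel alpha subunits at the axon initial segment. Its RMA values ran from 10.37 (median 10.48) to 10.59 in CC6 and from 9.52 (median 10.18) to 10.27 in SD, with every SD array below every CC6 array. Fgf14 fell by 0.22 log2 (SE 0.036, adjusted p = 5.67e-05, or 0.00176 on RMA values) and passed the FDR under each alternative tried. The difference was -0.12 in RS2 (adjusted p = 0.167), -0.12 in RS3 (adjusted p = 0.0663) and -0.011 in RS6 (adjusted p = 0.931). The RS6 difference minus the SD difference was 0.21 (SE 0.050, adjusted p = 0.00983, or 0.395 on RMA values), where RS6 followed 5 h of deprivation and SD 6 h.

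At an unadjusted p under 0.05, SD held 6 higher and 5 lower of the 24 partners, against 8% and 7.88% of all probesets. In the 3 recovery comparisons 0 of 24 passed the FDR (limma), against 0.299% of probesets in RS2, 0.171% in RS3 and 0.149% in RS6. At an unadjusted p under 0.05 RS2 held 3 higher and 1 lower (5.71% and 4.78% of probesets), RS3 also 3 and 1 (6.66% and 5.09%), and RS6 2 and 6 (7.93% and 6.21%). Between undisturbed groups Nedd4l, a ubiquitin ligase that acts on sodium channels, rose by 0.15 log2 in CC11 against CC6 (SE 0.032, adjusted p = 0.00832). Rims2, an active zone protein that binds calcium channels, rose by 0.15 in CC11 against CC0 (SE 0.031, adjusted p = 0.0026). Each was the 1 partner of 24 past the FDR in its comparison, against 0.265% and 0.975% of all probesets. Without RUV neither passed (adjusted p = 0.319 and 0.0313). Pex5l, which encodes the HCN auxiliary subunit TRIP8b, passed in the F test over control groups (adjusted p = 0.0087, or 0.0506 on RMA values). In that test 0.896% of all probesets passed. For Pex5l CC11 stood -0.17 log2 from CC0 (adjusted p = 0.0163).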

How the data were processed

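Cortical RNA was measured on Affymetrix Mouse Gene ST arrays, of which 59 were used. The deposited values were log2 expression per probeset, made by the authors with RMA (background correction, quantile normalisation and summary), and whether RUV had also been applied to them is not given in the sources used here. Probe names came from the platform annotation, and 1445 kept probesets with several symbols and 11880 without one were not assigned to a gene. A further column (1) was not analysed here, since the labels of its sample disagree on the group. Probesets over log2 4 on more than 50% of arrays were kept (32819 of 41345). RUV factors (k = 6) were estimated from differences between arrays of a group, with all kept probesets as controls, and fitted with the 9 groups in limma 3.58.1 (R 4.3.3), with Benjamini-Hochberg adjustment over all kept probesets and an FDR threshold of 0.01. Differences are on the log2 scale and intervals are 95% intervals from this fit. RMA values were fitted in the same way without factors. The scripts were tested on simulated data. Precision is limited by the number of arrays a group, 4 to 7.

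The genes given with values were the 3 with the smallest p in each sleep comparison and a set of pore-forming subunits of cortical neurons. For the other members counts and ranges are given. The members, the partner list and the marker lists were chosen with earlier results of these data known. The marker lists were neurons, cortical layers, striatum, oligodendrocytes and their precursors, astrocytes, microglia, endothelium and choroid plexus. Alternatives covered the filter, a second quantile normalisation, the number and use of RUV factors, the control probesets, an intensity trend, a replicate block, the arrays that stood apart, a striatal covariate and leaving out each RS2 array.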

Additional observations from a re-analysis of the deposited data

Results flagged for a closer look

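Within groups, the highest or lowest array lay far from the others (Dixon's ratio at its 95% critical value) in 11 of 108 combinations of 12 genes and 9 groups, where chance gives about 1 in 20. Of these, 7 were on arrays that stood apart on the first principal component. In CC0 replicate 1, Cacng2 read 8.78 (nearest array 9.84), Cacna1c 9.08 (nearest 9.53) and Cacna1g 9.2 (nearest 8.69). In CC8 replicate 1, Cacnb1 read 9.38 (nearest 9.04) and Hcn2 9.68 (nearest 9.11), and in RS6 replicate 1, Hcn2 read 9.76 (nearest 9.1) and Scn2a 11.37 (nearest 11.5).

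The other 4 were on other arrays. Cacna2d1 read 10.94 in CC7 replicate 7 (nearest 10.81), and Cacna2d3 read 9.94 in RS2 replicate 4 (nearest 10.28). Scn4b read 7.2 in RS3 replicate 4 (nearest 7.92) and Cacna1c 9.52 in RS3 replicate 2 (nearest 9.68). Cacnb1 was among the 12 genes for its p in CC6 against CC0, and it lies outside the rule for named genes.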

How the results depend on the processing

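The count of channel genes past the FDR was 0 of 38 in every comparison, and 16 other settings were tried, of which 5 moved no count: no filter, 3 RUV factors, no RUV, control probesets without the channel genes, and the striatal covariate. In SD the count was 1 with a filter at log2 6 (Cacna2d1) or a second quantile normalisation (Cacng2), and 2 (both genes) with 9 factors, with the RUV part subtracted, with an intensity trend or without the 5 arrays that stood apart. It was 1 without any 1 of the RS2 arrays. In RS6 the count was 1, Cacna1g, under the filter at 6, 9 factors, the subtracted RUV part and without the 5 arrays. CC11 against CC6 gave 1 under 9 factors and without the 5 arrays (Cacna1g), and 1 under the subtracted part and the trend (Cacna1c). CC11 against CC0 gave 1, Cacna1g, under the filter at 6, the quantile normalisation, 9 factors, the trend and without the 5 arrays, 2 with the subtracted part (also Scn4b), and 0 to 1 when RS2 arrays were left out. The F test over control groups gave 1 (Cacna1g) under the filter at 6, 9 factors and without the 5 arrays, and 2 with the subtracted part (also Cacna1c). The filter at 6 tests fewer probesets and the subtracted part does not charge the fit for the factors. The cause of the other changes was not tested. The share of all probesets past the FDR under each setting is not given here. These counts are therefore not read as a result about the channel genes.

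For 21 pairs of a leading gene and a comparison, 342 alternative values kept their direction except the second Cacnb2 probeset, at -0.092 for CC11 against CC0, and 31 passed the FDR. These pairs were chosen for a small p, and over all 21 named genes 65 of 2345 alternative values had another sign.

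The labels describe 7 repeats of the experiment but do not say that replicate numbers mark them. Arrays with the same number had deviations correlated between -0.12 and 0.21, and not every pair was above 0.1, so the numbers were not used as pairs. The paper took a single animal for each time point on an experimental day. Of the 5 arrays that stood apart, all but SD replicate 2 carried number 1, while replicate 1 of the other groups did not stand apart. A day shared by these arrays was not tested. With the replicate block the RS6 count was 1 (Cacna1g, adjusted p = 0.00852) and the count was 0 in the other comparisons.

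Partner calls other than that of Fgf14 in SD were lost under some settings, among them the Fgf14 difference between RS6 and SD with 3 factors (adjusted p = 0.0243) or the replicate block (0.0109), Nedd4l with the striatal covariate (0.0665) and Rims2 with the block (0.0479). RS2, with 4 arrays, had the largest median SE of the sleep comparisons (0.065 log2).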
